A study of Mus musculus with 9 samples.

Results

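The 48 genes examined here encode the enzymes, transporters and regulators that take glucose into the cell and carry it through glycolysis, the pentose phosphate pathway and the tricarboxylic acid (TCA) cycle. They were chosen by name from these pathways, and all 48 were found among the 47643 genes of the deposited count matrix. Of these 48, 47 passed the filter on low values (a median CPM, the counts of a gene scaled to library size, above 1 over the 9 libraries), as did 11560 genes in all. The gene left out by the filter was Ldhb, the heart-type subunit of lactate dehydrogenase, which lay between 0 and 0.536 CPM.

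RNA was measured in bone marrow-derived mast cells (BMMCs), primary cells grown from the marrow of C57BL/6 mice for at least 4 weeks in medium conditioned by WEHI-3 cells, a line that secretes the mast cell growth factor interleukin-3. The 3 groups, with 3 libraries each, were untreated cells (Control), cells sensitized with IgE against the hapten DNP and stimulated with its carrier antigen DNP-BSA (IgE+BSA), and stimulated cells that also received the plant flavonoid luteolin (IgE+BSA+Luteolin). The labels give a luteolin concentration of 10 uM and a time of 24 h, while the sources used here differ on whether luteolin came before or after the antigen. There was no group with luteolin alone, and nothing in the labels says whether the replicates came from separate cultures or animals, so p-values measure only the spread between these libraries, which may be technical.

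Cells take up glucose through facilitative transporters, trap it as glucose 6-phosphate and split it by glycolysis into pyruvate, which is either reduced to lactate and exported or oxidized in mitochondria. Glucose 6-phosphate can also enter the pentose phosphate pathway, which makes NADPH and ribose phosphate. Crosslinking of the IgE receptor on mast cells is known to raise their demand for glucose, and the hypoxia-inducible transcription factor HIF-1 is a well-known activator of glycolytic genes.

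The markers of mast cells were abundant in all 9 libraries, with a summed level of 57433 to 86288 CPM over 10 genes, while the 3 T cell markers summed to 0.0488 CPM at most and the 3 fibroblast markers to 1.3 CPM at most. Of the macrophage or monocyte markers, Adgre1 was at 202.5 to 259.2 CPM, Ccr2 at 187.8 to 240.4 CPM and Lyz2 at 89.5 to 112.6 CPM, while C1qa was at 0.0405 CPM at most. The 3 megakaryocyte markers summed to 1740 to 2186 CPM, of which Itga2b alone made up 1730 to 2170 CPM. Control replicate 1 stood apart from the other Control libraries, with a chi-square per degree of freedom of 88.1 and 146 against replicates 2 and 3, which gave 6.55 against each other. Control replicates 2 and 3 held 6.97 and 5.69 CPM of 6 neutrophil markers together, against 195.9 CPM in Control replicate 1, 130.2 to 141.5 CPM in IgE+BSA and 151.6 to 179.2 CPM in IgE+BSA+Luteolin. Camp was at 0 in Control replicate 2 and at 0.0412 CPM in Control replicate 3, and Elane was at 0 and 0.206 CPM. Of the 3 basophil markers, the protease gene Mcpt8 was at 431.7, 21.8 and 18.7 CPM in Control replicates 1, 2 and 3, Prss34 at 759, 650.5 and 610.9 CPM and Cd200r3, which was lowest in replicate 1, at 687.5, 1045 and 1023 CPM. Over the 47 members tested, the root mean square log2 distance of Control replicate 1 was 0.612 to the mean of the other Control libraries and 0.232 to that of IgE+BSA+Luteolin. Each comparison with Control is therefore given with and without this library, and the part of cell composition in these results was not tested. In bulk RNA, fewer cells of a type and less RNA per cell cannot be told apart.

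The promoters of the 2 members with the largest fall and the 2 with the largest rise with luteolin, among those with a RefSeq window (Slc2a3 has none here), are shown because they let a reader look for the core of the hypoxia response element, ACGTG or GCGTG, which HIF-1 can bind. The windows span 250 bases before to 50 bases after the start of transcription, from RefSeq on GRCm38.p6, and capitals mark either core on either strand. The windows of Hk2 at chr6:82774405-82774704 (minus strand) and Hif1a at chr12:73907617-73907916 (plus strand) belong to genes that were lower with luteolin, and those of Mdh1 at chr11:21571885-21572184 (minus strand) and Suclg1 at chr6:73248255-73248554 (plus strand) to genes that were higher.
Hk2: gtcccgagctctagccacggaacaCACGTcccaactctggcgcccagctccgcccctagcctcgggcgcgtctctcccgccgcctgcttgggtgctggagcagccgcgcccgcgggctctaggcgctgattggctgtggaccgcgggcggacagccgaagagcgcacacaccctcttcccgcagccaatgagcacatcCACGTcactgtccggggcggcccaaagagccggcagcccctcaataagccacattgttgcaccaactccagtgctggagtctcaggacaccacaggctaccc
Hif1a: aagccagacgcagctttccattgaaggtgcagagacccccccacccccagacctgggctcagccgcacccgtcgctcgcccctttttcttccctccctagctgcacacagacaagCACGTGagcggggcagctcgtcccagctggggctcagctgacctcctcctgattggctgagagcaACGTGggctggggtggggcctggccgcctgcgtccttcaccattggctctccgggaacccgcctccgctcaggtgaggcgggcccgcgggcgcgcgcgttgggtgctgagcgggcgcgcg
Mdh1: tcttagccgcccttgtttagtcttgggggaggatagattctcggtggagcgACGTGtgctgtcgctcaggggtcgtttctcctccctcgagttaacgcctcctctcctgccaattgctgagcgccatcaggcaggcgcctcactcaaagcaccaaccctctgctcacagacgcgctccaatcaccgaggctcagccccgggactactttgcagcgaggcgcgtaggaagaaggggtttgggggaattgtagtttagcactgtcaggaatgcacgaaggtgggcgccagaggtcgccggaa
Suclg1: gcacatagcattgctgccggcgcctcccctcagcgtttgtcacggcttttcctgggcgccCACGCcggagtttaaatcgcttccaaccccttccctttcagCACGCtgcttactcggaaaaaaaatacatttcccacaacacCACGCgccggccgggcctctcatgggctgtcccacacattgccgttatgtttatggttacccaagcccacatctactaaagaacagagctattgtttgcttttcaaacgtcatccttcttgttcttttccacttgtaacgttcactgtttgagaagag

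The Hk2 window held ACGTG at 2 places, that of Hif1a at 3 and that of Mdh1 at 1, while that of Suclg1 held GCGTG at 3 places. The match CACGTG in the Hif1a window, the E-box bound by MYC and USF factors, reads ACGTG on both strands and counts as 2 of its 3. At least 1 window of 21.8% of 27025 genes held ACGTG, as did those of 43.5% of the 46 members with a window. Among the 16 glycolytic enzyme genes 10 held it, against 3 of 13 TCA cycle genes and 1 of 7 pentose phosphate genes. Of the 5 members that were lower with luteolin and have a window, 4 held it, and of the 8 that were higher 2 did. The looser core GCGTG was in 35.2% of all genes' windows and in 65.2% of those of the members. It was in 3 of the 5 members that were lower with luteolin and in 5 of the 8 that were higher. By pathway, 10 of 16 glycolytic, 7 of 13 TCA cycle and 6 of 7 pentose phosphate genes held it. A match is a description of these letters and does not show binding. Of the other motifs searched on both strands, CACGTG, which contains ACGTG, was in 8.09% of all genes and 13% of members. The AP-1 motif TGANTCA was in 8.97% of all genes and in 1 member, the CRE motif TGACGTCA in 2.03% and 3 members, the EGR motif GCGTGGGCG, which contains GCGTG, in 0.707% and 2 members, and the NRF1 motif GCATGCGC in 3.05% and 4 members. The NF-kB motif GGGANTTCC was in 1.92% of all genes and 1 member, and the ERR motif TCAAGGTCA in 0.466% and 0 members.

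The comparison of IgE+BSA+Luteolin with IgE+BSA addresses what luteolin does to stimulated cells. Both glucose transporter genes, Hk2 and 2 of the 4 regulators were lower, the other glycolytic enzymes did not pass the test, and 5 of the 14 TCA cycle and related genes were higher. At an adjusted p under 0.05 from edgeR's quasi-likelihood test, 6 members were lower, 8 were higher and 33 did not pass. Over all genes tested, 40% passed, 21.9% lower and 18.1% higher, so a call was common in this comparison. The median log2 fold change was 0.06 over the members and 0.02 over all genes tested. The libraries of both groups did not overlap for 14 members, and for 50.3% of all genes tested. Levels below are TMM-normalized CPM in replicates 1, 2 and 3 in that order.

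**Figure D1:**
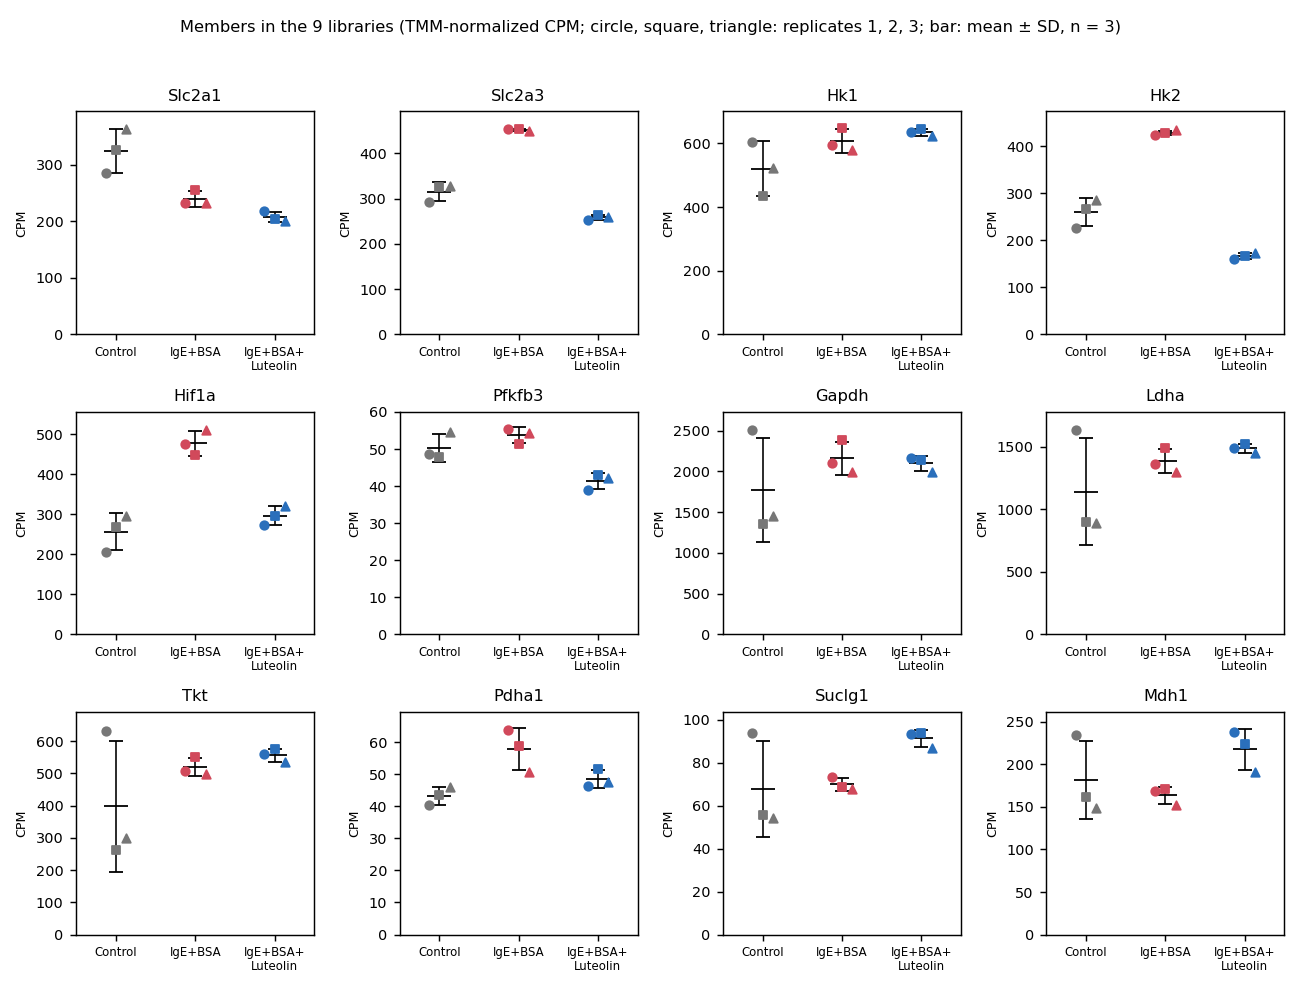
Levels of 12 members in the 9 libraries, in TMM-normalized CPM on linear axes that start at 0. Circles, squares and triangles are replicates 1, 2 and 3, and bars give the mean ± SD (n = 3). Hk2, Slc2a3 and Hif1a stood highest in IgE+BSA, while Gapdh, Ldha and Tkt split the Control libraries, with replicate 1 above replicates 2 and 3.

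Both glucose transporters were lower with luteolin. Slc2a3, which encodes the high-affinity transporter GLUT3 (chr6:122727809-122801640, minus strand, GRCm38), was at 454, 452.7 and 449.2 CPM in IgE+BSA and at 251.9, 262.7 and 260.0 CPM in IgE+BSA+Luteolin. Control held 291.5, 326.2 and 328.5 CPM. All 3 luteolin libraries were thus below all other libraries, and the log2 fold change against IgE+BSA was -0.80 (SE 0.05, edgeR adjusted p = 1.39e-09). Slc2a1, which encodes GLUT1, the basal glucose transporter of most cells, was at 231.2, 255.0 and 231.8 CPM in IgE+BSA, 218.3, 203.3 and 200.4 CPM in IgE+BSA+Luteolin and 284.3, 326.1 and 362.3 CPM in Control. It was thus highest in Control, and its fall with luteolin was small (log2 fold change -0.20, SE 0.06, edgeR adjusted p = 0.0125). That call was lost when IgE+BSA+Luteolin replicate 2 was left out (edgeR adjusted p = 0.0598). Per length, Slc2a1 made up 52.2% ± 1.36 of the reads of this gene pair in IgE+BSA, 62.4% ± 1.56 in IgE+BSA+Luteolin and 67.9% ± 1.41 in Control (SD, n = 3).

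Of the 15 glycolytic enzyme genes tested, Hk2 was lower and 0 were higher. Hk2 encodes hexokinase 2, the inducible enzyme that phosphorylates glucose (chr6:82725025-82774454, minus strand), and its promoter window is the first of those printed above. It was at 425, 427.5 and 433.7 CPM in IgE+BSA and at 160.1, 167.6 and 171.9 CPM in IgE+BSA+Luteolin, and Control held 227, 266 and 285.1 CPM. No library of any group overlapped another group, and the level with luteolin fell by 61.1% from that in IgE+BSA (log2 fold change -1.36, SE 0.05, edgeR adjusted p = 1.85e-12). Hk1, which encodes the constitutive hexokinase 1, was at 594.3, 650.3 and 580.5 CPM in IgE+BSA, 637.2, 645.5 and 622.6 CPM in IgE+BSA+Luteolin and 605.5, 434.1 and 522.3 CPM in Control. Its stimulated groups overlapped (log2 fold change 0.06, SE 0.06, edgeR adjusted p = 0.377). With a correction for gene length Hk1 was called higher (0.19, edgeR adjusted p = 0.019). Per length, Hk2 made up 50.2% ± 1.62 of the reads of the pair in IgE+BSA, 27.3% ± 0.953 in IgE+BSA+Luteolin and 41.8% ± 6.15 in Control (SD, n = 3). In the Control libraries this share was 34.9%, 46.7% and 43.8%. The size of such a share, here and for the other pairs, depends on the summed exon lengths used. By mean CPM, Hk1 (608.4) stood above Hk2 (428.7) in IgE+BSA.

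**Figure D2:**
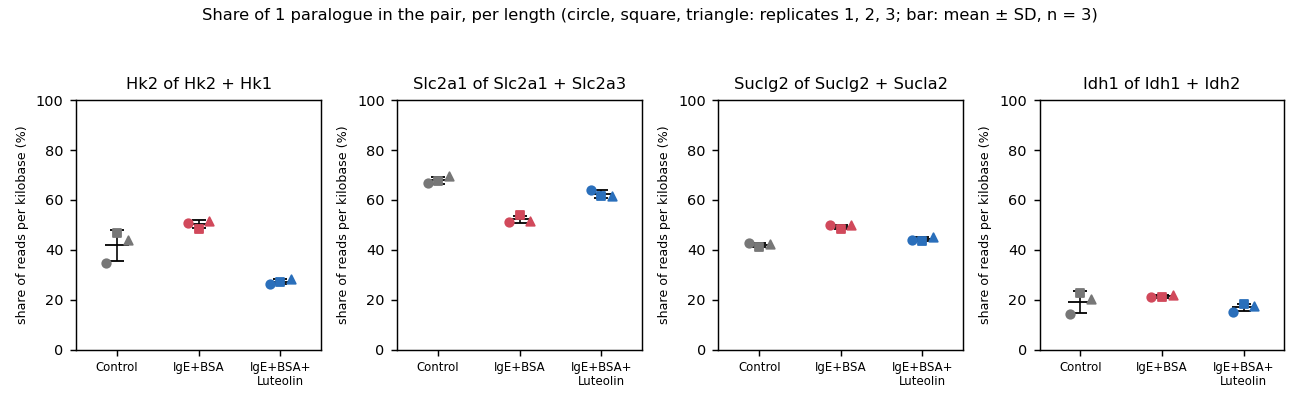
Share of 1 gene in the reads per kilobase of a pair of related genes, in percent, in each of the 9 libraries. Circles, squares and triangles are replicates 1, 2 and 3, and bars give the mean ± SD (n = 3). The share of Hk2 was 26.4% to 28.3% with luteolin and 48.4% to 51.6% in IgE+BSA.

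The genes of the enzymes between hexokinase and lactate did not pass the test under the scaling used. Pfkl, which encodes the liver-type subunit of phosphofructokinase, was at 184.9, 221.8 and 171.2 CPM in IgE+BSA, 188.4, 196.6 and 199.5 CPM in IgE+BSA+Luteolin and 209.8, 110 and 128.5 CPM in Control. Pfkp, the platelet-type subunit, was at 485.9, 479.3 and 499.6 CPM in IgE+BSA, 443.5, 442.6 and 459.5 CPM in IgE+BSA+Luteolin and 480.3, 399.6 and 411.5 CPM in Control. For Pfkp the stimulated groups did not overlap, but the difference did not pass (log2 fold change -0.12, SE 0.05, edgeR adjusted p = 0.0726), and it passed as lower without IgE+BSA+Luteolin replicate 3 (edgeR adjusted p = 0.047) and with DESeq2 (adjusted p = 0.041). A correction for gene length turned its direction (0.12, edgeR adjusted p = 0.0677). Gapdh, which encodes glyceraldehyde 3-phosphate dehydrogenase, was at 2101, 2386 and 1987 CPM in IgE+BSA, 2160, 2137 and 1997 CPM in IgE+BSA+Luteolin and 2510, 1359 and 1451 CPM in Control. The stimulated groups overlapped, and Control replicate 1 was the highest of the 9 libraries. Ldha, which encodes the muscle-type subunit of lactate dehydrogenase, was at 1362, 1492 and 1303 CPM in IgE+BSA, 1487, 1526 and 1452 CPM in IgE+BSA+Luteolin and 1636, 896.8 and 894.5 CPM in Control. Here too replicate 1 of Control stood above every other library. Ldhb, at 0.271, 0.05 and 0 CPM in IgE+BSA, 0.0466, 0.283 and 0.387 CPM in IgE+BSA+Luteolin and 0.0973, 0 and 0.536 CPM in Control, lay near the 0.122 to 0.315 CPM that 3 counts amount to in these libraries.

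The other 9 glycolytic genes tested were Gpi1, Pfkm, Aldoa, Aldoc, Tpi1, Pgk1, Pgam1, Eno1 and Pkm, and their log2 fold changes ran from -0.05 for Pgam1 to 0.21 for Aldoc. Per kilobase of summed exons, the highest glycolytic value in IgE+BSA+Luteolin was that of the aldolase gene Aldoa, at 544 ± 23.01 RPKM (reads per kilobase of exon, scaled to library size). It was followed by Gapdh at 508 ± 21.3 and Ldha at 450 ± 11.3 RPKM (SD, n = 3). This order depends on the lengths used, since by mean CPM Gapdh (2098) and Pkm (1774) stood above Aldoa (1585) in IgE+BSA+Luteolin. In IgE+BSA the values of Gapdh, 522 ± 49.7 RPKM, and Aldoa, 503 ± 36.3 RPKM, lay within each other's SD. Summed over the 16 glycolytic enzyme genes, the level was 10971, 12138 and 10543 CPM in IgE+BSA and 11468, 11494 and 11050 CPM in IgE+BSA+Luteolin, which overlapped. Without IgE+BSA replicate 2, the library with the highest sum among the stimulated ones, Aldoa, Tpi1, Eno1, Pkm and Ldha passed as higher, as did Tkt and Mdh2 from other pathways, and 15 members in all were higher and 6 lower, against 19% and 22.9% of all genes tested in that fit. The named gene copies and pseudogenes of these enzymes that were looked at, such as Eno1b and Pgk1-rs7, were at most 1.77 CPM. Reads that map to several places may be missing from a gene and its copies alike, so these values do not show how many reads are shared.

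The monocarboxylate transporters, which export lactate, did not pass. Slc16a1 (MCT1) was at 38.9, 42.4 and 43.0 CPM in IgE+BSA, 40.2, 42.3 and 43.5 CPM in IgE+BSA+Luteolin and 40.1, 20.3 and 18.8 CPM in Control. Slc16a3 (MCT4) was at 162.4, 193.9 and 170.2 CPM in IgE+BSA, 165, 165.2 and 164.1 CPM in IgE+BSA+Luteolin and 195.1, 91.8 and 100.7 CPM in Control. For both genes the stimulated groups overlapped, and replicates 2 and 3 of Control lay below the other 7 libraries.

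Of the 4 regulators, 2 were lower with luteolin. Hif1a, which encodes the oxygen-regulated subunit of HIF-1 (chr12:73901375-73947530, plus strand), was at 475, 447.3 and 509.6 CPM in IgE+BSA, 272.5, 295.7 and 319.6 CPM in IgE+BSA+Luteolin and 206.2, 268.3 and 295.3 CPM in Control. IgE+BSA stood above both other groups in every library, and with luteolin the level fell by 0.69 on the log2 scale from it (SE 0.07, edgeR adjusted p = 3.13e-07). HIF-1 is regulated largely through the stability of this protein, which was not measured here. Pfkfb3, which encodes a kinase that makes the phosphofructokinase activator fructose 2,6-bisphosphate, was at 55.5, 51.5 and 54.4 CPM in IgE+BSA, 38.9, 43.0 and 42.3 CPM in IgE+BSA+Luteolin and 48.6, 47.8 and 54.6 CPM in Control. Luteolin libraries were the 3 lowest of the 9 (log2 fold change -0.37, SE 0.07, edgeR adjusted p = 0.000556). Its relative Pfkfb4 was at 12.7, 12.0 and 11.0 CPM in IgE+BSA, 11.8, 13.3 and 11.4 CPM in IgE+BSA+Luteolin and 13.8, 15.8 and 15.0 CPM in Control, with overlapping stimulated groups. Pdk1, which encodes a kinase that switches off pyruvate dehydrogenase, was at 40.9, 45.7 and 36.1 CPM in IgE+BSA, 44.1, 39.6 and 43.1 CPM in IgE+BSA+Luteolin and 27.8, 30.4 and 31.0 CPM in Control. All 6 stimulated libraries were above Control for Pdk1, and they overlapped with each other.

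Of the 7 pentose phosphate genes, 1 was higher with luteolin and 6 did not pass. Taldo1, which encodes transaldolase of the non-oxidative branch, was at 410.3, 456.4 and 409 CPM in IgE+BSA, 543.8, 537.5 and 454.4 CPM in IgE+BSA+Luteolin and 595.6, 326.9 and 321 CPM in Control. The stimulated groups overlapped by a single library each (log2 fold change 0.27, SE 0.07, edgeR adjusted p = 0.00593), and the call was lost without IgE+BSA+Luteolin replicate 1 (edgeR adjusted p = 0.0523). G6pdx, which encodes glucose 6-phosphate dehydrogenase, the entry enzyme, was at 256.9, 259.7 and 254 CPM in IgE+BSA, 272.5, 268.5 and 235.9 CPM in IgE+BSA+Luteolin and 266.3, 191 and 199 CPM in Control. Pgd, the next dehydrogenase of the oxidative branch, was at 274.1, 281.4 and 277.9 CPM in IgE+BSA, 298.7, 287.8 and 261.7 CPM in IgE+BSA+Luteolin and 304.3, 176.6 and 172.6 CPM in Control. Tkt, which encodes transketolase, was at 507.2, 551.3 and 497.8 CPM in IgE+BSA, 559.3, 575.2 and 535.3 CPM in IgE+BSA+Luteolin and 630.2, 262.5 and 300.4 CPM in Control. In these genes the stimulated groups overlapped, and Control replicates 2 and 3 were the lowest libraries. The log2 fold changes of G6pdx, Pgls, Pgd, Rpia, Rpe and Tkt with luteolin ran from 0.01 to 0.12.

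The pyruvate dehydrogenase complex, the gate from glycolysis to the TCA cycle, had members that moved in opposite directions. Dlat, its acetyltransferase subunit E2, was at 44.8, 37.1 and 42.8 CPM in IgE+BSA, 53.9, 52.6 and 52.3 CPM in IgE+BSA+Luteolin and 43.2, 35.1 and 31.4 CPM in Control, so that luteolin libraries were the highest of the 9 (log2 fold change 0.35, SE 0.08, edgeR adjusted p = 0.00177). Pdhb, the beta subunit of E1, was at 71.3, 70.7 and 71.5 CPM in IgE+BSA, 85.8, 80.6 and 83.6 CPM in IgE+BSA+Luteolin and 80.8, 61.4 and 55.4 CPM in Control (log2 fold change 0.23, SE 0.06, edgeR adjusted p = 0.00545). Its stimulated groups did not overlap. Pdha1, the alpha subunit of E1, was at 63.7, 59.0 and 50.7 CPM in IgE+BSA, 46.4, 51.8 and 47.6 CPM in IgE+BSA+Luteolin and 40.4, 43.6 and 46.0 CPM in Control. The stimulated groups overlapped for Pdha1, and its call as lower (log2 fold change -0.25, SE 0.08, edgeR adjusted p = 0.0257) was lost without IgE+BSA replicate 1 (edgeR adjusted p = 0.17) or without IgE+BSA+Luteolin replicate 1 (edgeR adjusted p = 0.101).

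Of the 14 genes of the TCA cycle and of the isocitrate and malate dehydrogenases, 5 were higher with luteolin and 0 were lower. The largest rise was that of Mdh1, the cytosolic malate dehydrogenase of the malate-aspartate shuttle, from 168.6, 170.6 and 152 CPM in IgE+BSA to 237.8, 224 and 190.6 CPM (log2 fold change 0.41, SE 0.08, edgeR adjusted p = 0.000392), against 234.3, 162 and 148.9 CPM in Control. Suclg1, the subunit common to both succinyl-CoA ligases, went from 73.2, 68.7 and 67.6 CPM to 93.5, 93.7 and 86.6 CPM (log2 fold change 0.39, SE 0.06, edgeR adjusted p = 0.000122), and Control held 93.6, 55.6 and 54.0 CPM. Idh2, the mitochondrial NADP-dependent isocitrate dehydrogenase, went from 107.0, 111.7 and 104.6 CPM to 137.7, 138.2 and 124.4 CPM (log2 fold change 0.31, SE 0.06, edgeR adjusted p = 0.000701), and Control held 146.2, 79.0 and 81.5 CPM. In all 3 genes every luteolin library was above every IgE+BSA library, and Control replicate 1 was above Control replicates 2 and 3. Sucla2, the ADP-specific ligase subunit, rose by 0.27 and Fh1, fumarase, by 0.23 on the log2 scale. The call of Fh1 was the least stable, being lost without IgE+BSA replicate 1 or 3 or without IgE+BSA+Luteolin replicate 1 or 2 (edgeR adjusted p = 0.119, 0.114, 0.09 and 0.111), and its groups overlapped.

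The other 9 genes of this group did not pass. Cs, which encodes citrate synthase, the first enzyme of the cycle, was at 267.9, 268.7 and 269.4 CPM in IgE+BSA, 276.4, 271 and 275.2 CPM in IgE+BSA+Luteolin and 248.7, 201.4 and 203 CPM in Control. Its stimulated groups did not overlap, yet differed by a log2 fold change of 0.03 (edgeR adjusted p = 0.641). Idh1, the cytosolic NADP-dependent isocitrate dehydrogenase, was at 30.5, 31.9 and 31.2 CPM in IgE+BSA, 26.5, 32.7 and 28.0 CPM in IgE+BSA+Luteolin and 26.2, 25.1 and 22.3 CPM in Control. Ogdh, the first subunit of 2-oxoglutarate dehydrogenase, was at 221.8, 231 and 207.8 CPM in IgE+BSA, 227.6, 217.1 and 210.4 CPM in IgE+BSA+Luteolin and 207.1, 134.4 and 163.7 CPM in Control. Idh1 and Ogdh overlapped between the stimulated groups. Mdh2, the mitochondrial malate dehydrogenase, was at 247.4, 270.2 and 232.8 CPM in IgE+BSA, 281.1, 284.6 and 267.6 CPM in IgE+BSA+Luteolin and 308.5, 161.9 and 182.3 CPM in Control, and lay just outside the threshold (log2 fold change 0.15, SE 0.06, edgeR adjusted p = 0.0547). It passed as higher with DESeq2 (adjusted p = 0.0438), limma (adjusted p = 0.0451) and without IgE+BSA+Luteolin replicate 3 (edgeR adjusted p = 0.0283), among other settings. With a correction for gene length it did not pass (0.10, edgeR adjusted p = 0.161). The log2 fold changes of Idh3a, Idh3b, Idh3g, Dlst and Suclg2 ran from -0.03 to 0.12. Per length, the share of Idh1 in the pair with Idh2 was 21.3% ± 0.432 in IgE+BSA and 16.9% ± 1.504 with luteolin, and the share of the GDP-specific Suclg2 in the pair with Sucla2 was 49.3% ± 0.846 and 44.2% ± 0.814 (SD, n = 3). These shares did not overlap between both groups.

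**Figure D3:**
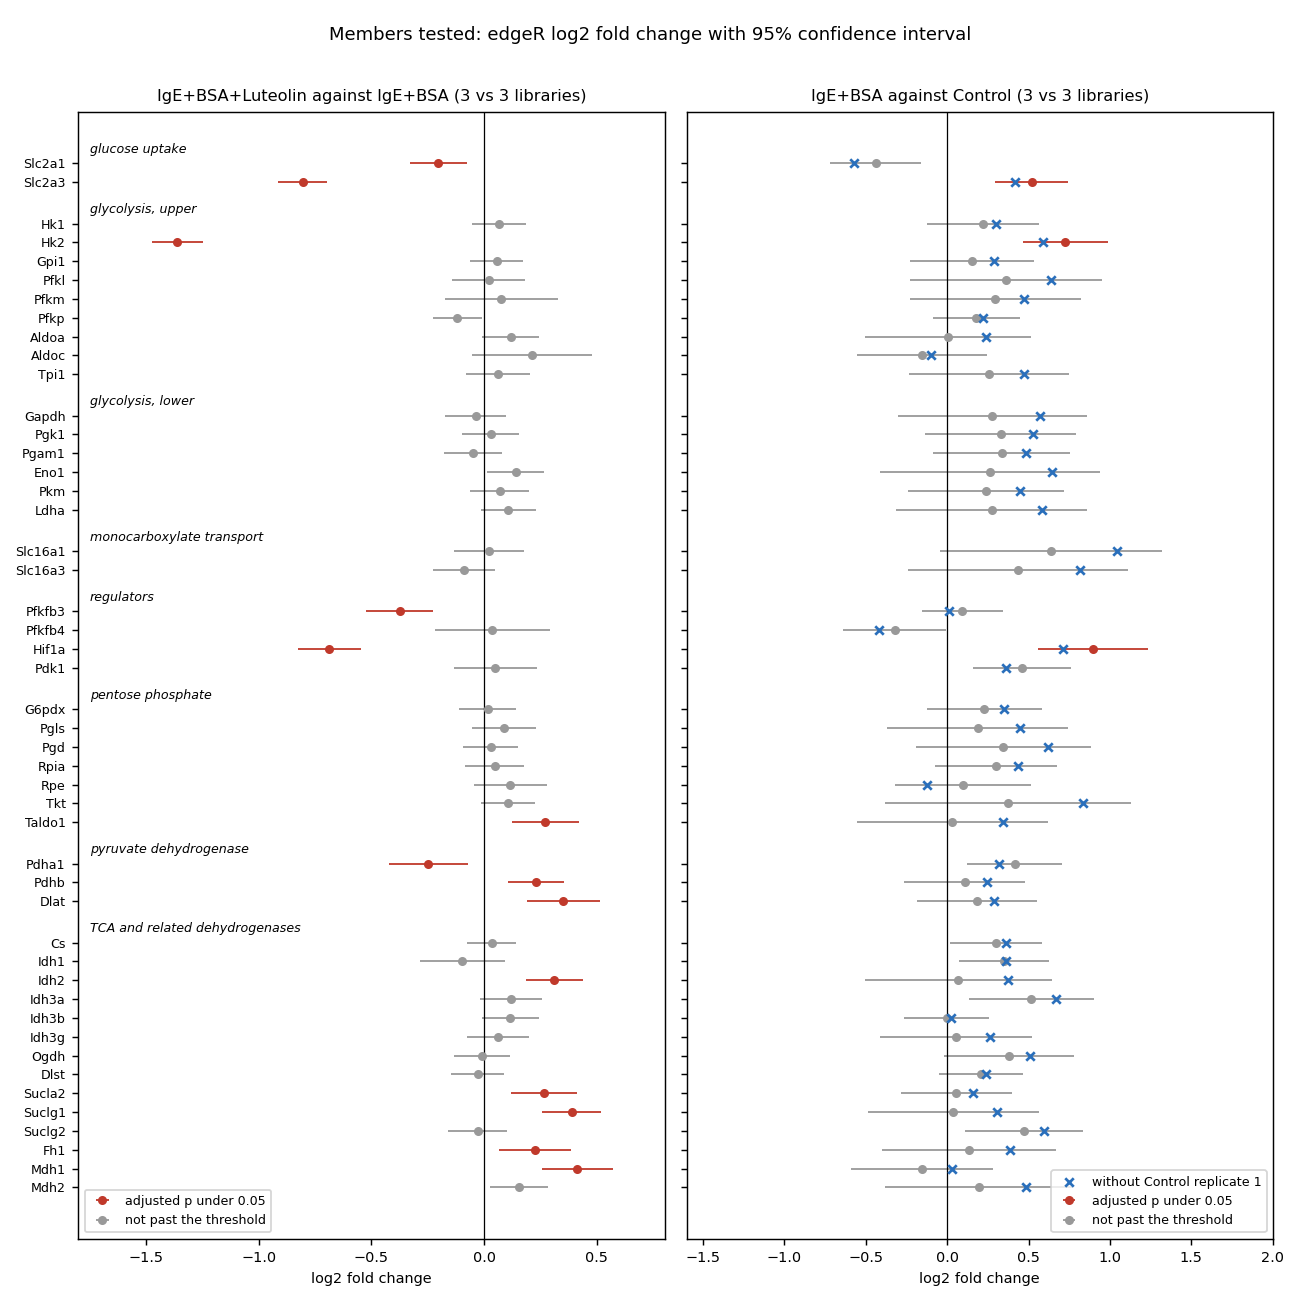
Log2 fold changes of the 47 members tested, by role, with 95% confidence intervals, for IgE+BSA+Luteolin against IgE+BSA (left) and IgE+BSA against Control (right). Red points passed an edgeR adjusted p of 0.05, grey points did not, and blue crosses give the value without Control replicate 1. On the left 6 members were lower and 8 higher, and on the right 3 were higher.

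By role, luteolin went with 2 lower of 2 glucose uptake genes, 2 lower of 4 regulators, 1 lower and 0 higher of 15 glycolytic enzymes, and 0 of 2 monocarboxylate transporters called. Of 7 pentose phosphate genes 1 was higher, of 3 pyruvate dehydrogenase genes 2 were higher and 1 lower, and of 14 TCA cycle and related genes 5 were higher. Over all genes tested the shares were 21.9% lower and 18.1% higher. The difference between the pathways was not tested. Summed uptake genes were at 685.2, 707.7 and 681 CPM in IgE+BSA and 470.2, 466 and 460.4 CPM with luteolin, and the TCA cycle and related genes at 1709, 1772 and 1649 CPM and 1920, 1915 and 1789 CPM. Neither sum overlapped between these groups, whereas those of glycolysis and of the pentose phosphate genes (1639, 1745 and 1629 against 1879, 1875 and 1684 CPM) did. The ratio of the glycolytic to the TCA cycle and related sum was 6.42, 6.85 and 6.39 in IgE+BSA and 5.97, 6.00 and 6.18 with luteolin. In Control it was 6.68, 5.93 and 6.15, which overlapped both.

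**Figure D4:**
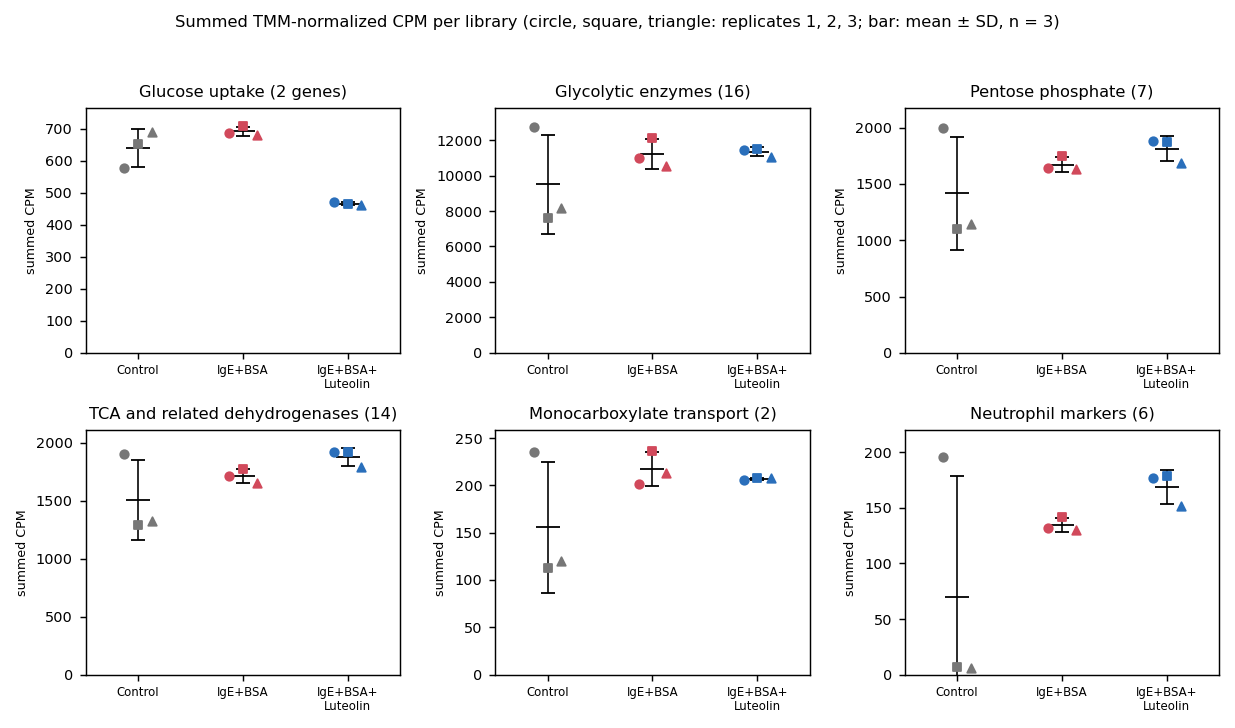
Summed TMM-normalized CPM of 5 role groups and of 6 neutrophil marker genes in the 9 libraries, on linear axes that start at 0. Circles, squares and triangles are replicates 1, 2 and 3, and bars give the mean ± SD (n = 3), cut at 0 for the Control neutrophil markers. In every panel but glucose uptake, Control replicate 1 lay above Control replicates 2 and 3, and the uptake sum was lowest with luteolin.

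The scaling of libraries bears on the small rises. When libraries were scaled by their total counts alone, the median log2 fold change of all genes moved from 0.02 to 0.13, and 27 members were higher and 4 lower, against 33.4% and 15.3% of all genes tested. Among the higher were 9 of the 15 glycolytic, 6 of the 7 pentose phosphate and 10 of the 14 TCA cycle and related genes. With upper-quartile scaling 16 members were higher and 4 lower, against 28.3% and 17.5% of all genes tested. The median of the glycolytic genes under total-count scaling, 0.17, lay near that of all genes, so the direction given for these enzymes is one relative to the other genes. Slc2a1 and Pdha1 were no longer called under either scaling, while Hk2, Slc2a3, Hif1a and Pfkfb3 were lower in all 18 fits made of this comparison. When the fit held all 9 libraries, 0 members were higher and these 4 were lower, against 1.52% and 7.93% of all genes tested. Of the 10 mast cell markers, 5 were higher with luteolin, among them Fcer1a (0.42) and Cpa3 (0.36), 2 were lower, Hdc (-1.16) and Mitf (-0.19), and 3 did not pass. Of the 6 neutrophil markers, S100a8 (0.43) and S100a9 (0.32) were higher and 4 did not pass. All 3 basophil markers were higher, Mcpt8 (0.21), Prss34 (0.24) and Cd200r3 (0.20). Of the 3 eosinophil markers, Siglecf was lower (-1.07) and 2 did not pass. No macrophage or monocyte (5 tested), megakaryocyte (3) or erythroid (1) marker passed. The part of these markers in the small rises was not tested. With a correction for gene length, 10 members were higher and 7 lower, against 17.1% and 19.3% of all genes tested (36.3% in all), and 7 of the 8 rises were still called, Fh1 being the exception (edgeR adjusted p = 0.0702). The calls gained were Hk1, Eno1 (0.17, edgeR adjusted p = 0.0294) and Tkt (0.20, edgeR adjusted p = 0.0151) as higher and Pgam1 (-0.17, edgeR adjusted p = 0.0177) as lower. Among the markers, the same correction lost the calls of Mcpt8 (0.02, edgeR adjusted p = 0.747), Prss34 (0.07, edgeR adjusted p = 0.274), S100a9 (0.08, edgeR adjusted p = 0.307) and Mitf (-0.13, edgeR adjusted p = 0.0775). It gained those of Lyz2 as lower (-0.18, edgeR adjusted p = 0.0231) and Itga2b as higher (0.15, edgeR adjusted p = 0.0191).

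The comparison of IgE+BSA with Control addresses stimulation itself. With all 6 libraries, 3 members were higher, 0 were lower and 44 did not pass, against 3.27% of all genes tested that passed (2.25% higher and 1.02% lower). At an unadjusted p under 0.05, 9 members were higher and 2 lower, against 10.8% and 9.67% of all genes tested. Hif1a was 86.1% higher (log2 fold change 0.90, 95% confidence interval 0.56 to 1.24, edgeR adjusted p = 0.0236). Hk2 was 65.3% higher (0.72, 0.46 to 0.99, edgeR adjusted p = 0.0191) and Slc2a3 43.3% higher (0.52, 0.29 to 0.74, edgeR adjusted p = 0.0366). These are the 3 members that fell most with luteolin, and both comparisons share the IgE+BSA libraries, so they are not independent. The calls of all 3 were lost without any 1 of the IgE+BSA libraries or without Control replicate 2, and that of Slc2a3 also without Control replicate 3, while the log2 fold changes kept their sign. The libraries of both groups did not overlap for 13 members, which included Slc2a1 and Pfkfb4 as lower in stimulated cells, and for 28.7% of all genes tested.

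Left without Control replicate 1, the same comparison called 39 members higher and 2 lower, against 22.6% and 22.4% of all genes tested (45% in all). All 6 tested genes from Gapdh to Ldha, 8 of 9 from hexokinase to triose phosphate isomerase, 6 of 7 pentose phosphate genes and 11 of 14 TCA cycle and related genes were then higher. The largest rises were those of Slc16a1, 1.04 against 0.64 with all libraries, Tkt, 0.83 against 0.38, and Slc16a3, 0.81 against 0.43 on the log2 scale. For the glycolytic genes the median was 0.47 without and 0.26 with this library. Hif1a, Hk2 and Slc2a3 kept their calls, with log2 fold changes of 0.71, 0.59 and 0.42. Those called lower were Slc2a1 (-0.57, edgeR adjusted p = 2.88e-05) and Pfkfb4 (-0.42, edgeR adjusted p = 0.0166).

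The Control libraries differed in most members. Of the 47 members tested, 38 were higher in Control replicate 1 than in both other Control libraries and 8 were lower than in both, against 43.4% and 46.5% of all genes tested. Its level was 1.4 times the mean of Control replicates 2 and 3 in the median member and 0.98 times in the median of all genes tested. It was 2.24 times for Tkt, 2.05 times for Slc16a1 and 2.02 times for Eno1, but 0.66 times for Rpe, 0.73 times for Hif1a, 0.82 times for Hk2 and 0.83 times for Slc2a1. All 14 TCA cycle and related genes were higher in Control replicate 1 than in the other Control libraries. Control replicates 2 and 3 lay below all 6 stimulated libraries in 37 members, against 26.5% of all genes tested. In 19 members Control replicate 1 lay within the range of the stimulated libraries, and in 18 above it, against 46.7% and 25.4% of all genes tested. The summed glycolytic level was 12715 CPM in Control replicate 1 and 7635 and 8150 CPM in replicates 2 and 3. The sums of the neutrophil markers given above and of the 10 mast cell markers, at 86288, 57568 and 57433 CPM, were also highest in Control replicate 1. Of the mast cell markers, Kit, Ms4a2, Mitf and Gata2 were lowest there among the Control libraries, and the rest were highest. The part of these markers in this difference was not tested. Whether the high or the low Control libraries stand for untreated cells was not tested.

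Between IgE+BSA+Luteolin and Control, 2 members were lower, 0 were higher and 45 did not pass, against 3.04% of all genes tested that passed (2.75% lower and 0.285% higher). At an unadjusted p under 0.05, 4 members were lower and 7 higher, against 14.9% and 8.08% of all genes tested. Those called were Hk2 (log2 fold change -0.64, SE 0.12, edgeR adjusted p = 0.0379) and Slc2a1 (-0.65, SE 0.12, edgeR adjusted p = 0.0389), and both calls were lost when any 1 library other than Control replicate 1 was left out. Without Control replicate 1, 37 members were higher and 5 lower, against 29.9% and 30.1% of all genes tested (60% in all). The 5 lower ones were Slc2a1 (-0.74), Hk2 (-0.74), Slc2a3 (-0.35), Pfkfb4 (-0.34) and Pfkfb3 (-0.32). Hif1a did not pass with all libraries (0.20, edgeR adjusted p = 0.44) or without Control replicate 1 (0.06, edgeR adjusted p = 0.518). The libraries did not overlap for 17 members and for 28.5% of all genes tested.

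**Figure D5:**
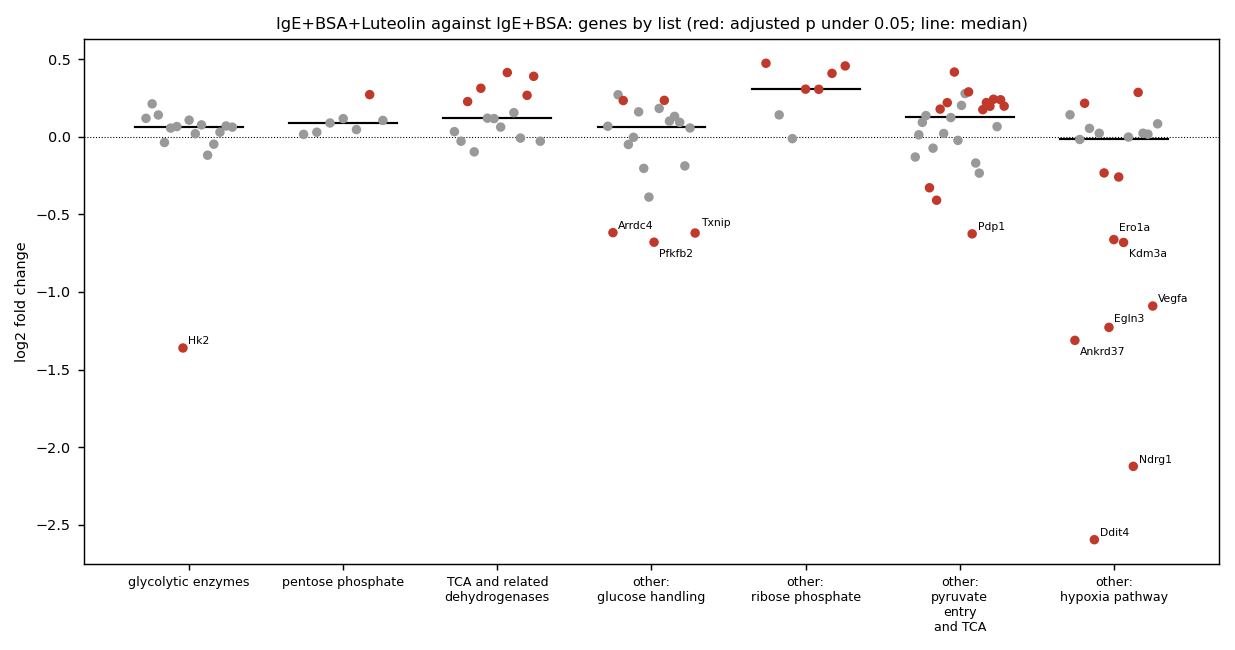
Log2 fold changes of IgE+BSA+Luteolin against IgE+BSA for the genes tested in 3 member groups and in 4 lists of other genes of these pathways. Each point is a gene, red where the edgeR adjusted p was under 0.05, and lines give the median of each list. The hypoxia list reached -2.60 at Ddit4, below the -1.36 of Hk2.

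Other genes of the same pathways, 81 in all of which 70 were tested, were taken from lists of these pathways that were drawn up with earlier results of these data known. In the list of the hypoxia pathway and HIF-1 targets, 9 of 19 tested were lower with luteolin and 2 were higher, against 21.9% and 18.1% of all genes tested, with a median log2 fold change of -0.02 against 0.02 over all genes tested. Ddit4, an inhibitor of mTORC1 signaling, went from 141.3, 145.7 and 140.2 CPM in IgE+BSA to 23.7, 23.8 and 23.01 CPM with luteolin (log2 fold change -2.60, edgeR adjusted p = 4.6e-15), and Control held 164.8, 93.6 and 94.4 CPM. Ndrg1, a stress-responsive gene, went from 242.4, 195 and 247.3 CPM to 52.9, 50.5 and 53.4 CPM (-2.12, edgeR adjusted p = 9.84e-13), and Control held 66.3, 97.0 and 89.4 CPM. Ankrd37, a gene of low level, went from 1.94, 1.95 and 2.88 CPM to 1.49, 0.607 and 0.628 CPM (-1.31, edgeR adjusted p = 0.011). For these genes no luteolin library overlapped an IgE+BSA library. Bnip3 and P4ha1, also known HIF-1 targets, were higher with luteolin (0.22 and 0.28), so the list did not move as a whole. In IgE+BSA against Control, 3 of the 19 were higher, Ndrg1 (1.44), Ero1a (1.01) and Vegfa (0.56), and 0 were lower, against 2.25% and 1.02% of all genes tested. With a correction for gene length 4 were higher and 1 lower, against 2.87% and 1.3% of all genes tested. Without Control replicate 1, 9 were higher and 5 lower, against 22.6% and 22.4% of all genes tested, and Ndrg1 (1.25), Ero1a (1.02) and Vegfa (0.45) were among the higher.

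Among 18 other genes of glucose handling, 3 were lower and 2 higher with luteolin, a smaller share than the 40% of all genes tested that passed. Those lower were Pfkfb2, a relative of Pfkfb3 (-0.68, edgeR adjusted p = 0.0059), Txnip, a glucose-induced inhibitor of glucose uptake (-0.62, edgeR adjusted p = 1.09e-06), and its relative Arrdc4 (-0.62, edgeR adjusted p = 0.000867). Txnip was at 525.7, 749 and 880.6 CPM in Control, 333.6, 358.9 and 319.7 CPM in IgE+BSA and 238.9, 208 and 210.2 CPM with luteolin. With all 6 libraries it was the single gene of these 18 called between IgE+BSA and Control (-1.09, edgeR adjusted p = 0.0277). Without Control replicate 1, Txnip (-1.32) was 1 of 4 lower genes and 4 were higher, against 22.4% and 22.6% of all genes tested. Its order of levels differed from that of Slc2a3 and Hk2, being highest in Control. Of 7 other genes of ribose phosphate metabolism, 5 were higher and 0 lower, against 18.1% and 21.9% of all genes tested, led by H6pd, the dehydrogenase of the endoplasmic reticulum (0.47, edgeR adjusted p = 0.000562), Shpk, sedoheptulokinase (0.46, edgeR adjusted p = 0.0367), and Rbks, ribokinase (0.41, edgeR adjusted p = 0.0408). Their median was 0.31.

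Of 26 other genes of pyruvate entry and the TCA cycle, 10 were higher and 3 lower with luteolin, with a median of 0.13, against 18.1% and 21.9% of all genes tested. Mpc2, a subunit of the mitochondrial pyruvate carrier, was higher (0.42, edgeR adjusted p = 0.00195). All 4 succinate dehydrogenase genes, Sdha to Sdhd, were higher, by 0.17 to 0.24 on the log2 scale. Pdp1, the phosphatase that switches pyruvate dehydrogenase on, was lower (-0.63, edgeR adjusted p = 0.0137), at 8.45, 8.05 and 7.17 CPM in IgE+BSA and 3.68, 6.07 and 5.51 CPM with luteolin, as was Got1, the cytosolic aspartate aminotransferase that works beside Mdh1 in the malate-aspartate shuttle (-0.41, edgeR adjusted p = 0.000273). Mdh1 and Got1 thus moved in opposite directions with luteolin. With a correction for gene length, the counts were 5 higher and 2 lower in this list, 2 higher and 0 lower in the ribose phosphate list and 1 higher and 8 lower in the hypoxia list, against 17.1% higher and 19.3% lower of all genes tested.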

How the data were processed

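Total RNA of the 9 libraries was made into stranded mRNA libraries, and the authors cleaned the reads with HTStream, mapped them by STAR 2.7.0f (mm10) and deposited unnormalized read counts for each Ensembl gene. The annotation release and strand setting are not given in the sources used here. Libraries were grouped by their labels. Depth was 9515004 to 24605689 counts, so 3 counts stood for 0.122 to 0.315 CPM (counting error only). No replicates were the same library (lowest chi-square per degree of freedom 4.04).

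Genes whose median CPM exceeded 1 were analysed in R 4.3.3 by edgeR 4.0.16 (quasi-likelihood, TMM factors, two-sided, Benjamini-Hochberg adjustment over all 11560 genes tested, threshold 0.05) on the 6 libraries of each comparison. On simulated data for IgE+BSA+Luteolin against IgE+BSA, with 200 of 11560 genes changed 2-fold, 92.5% were recovered and 3.14% of calls were false. The same test recovered 76% for IgE+BSA against Control and 76.5% for IgE+BSA+Luteolin against Control, with 5.59% and 6.71% of calls false. These rates hold for 2-fold changes with counts drawn independently for each gene and library. The simulation held neither the smaller changes of most members nor a library that departs as a whole, as Control replicate 1 did. Gene lengths (summed exons) and positions came from GENCODE M21 on GRCm38. All members were named or counted, with values per library for a list of entry points, branch points and some paralogues, and for the 3 largest calls per role group and comparison. Alternatives were DESeq2 1.42.0, limma 3.58.1, other scalings, no filter, all 9 libraries, thinning, gene length, a replicate block and each library left out. The members and lists were chosen with earlier results of these data known.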

Additional observations from a re-analysis of the deposited data

How the results depend on the processing

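For IgE+BSA+Luteolin against IgE+BSA, 8 members were higher, and this became 27 with scaling by total counts alone (33.4% of all genes tested were then higher, against 18.1%), 16 with upper-quartile scaling (28.3%), and 0 when the fit held all 9 libraries (1.52%), where 4 were lower (7.93%). Leaving out each replicate in turn gave 6 to 15 higher and 5 to 7 lower members, against 10.5% to 19.9% and 17.6% to 24% of all genes tested. For IgE+BSA against Control (3 higher, 0 lower), DESeq2 gave 1 lower (5.43% of all genes tested), total counts alone 0 higher (1.5%), and all 9 libraries 7 higher and 1 lower (5.83% and 3.73%). Its leave-one-out fits gave 0 to 39 higher and 0 to 2 lower (0.753% to 22.6% and 0.0173% to 22.4%). For IgE+BSA+Luteolin against Control (0 higher, 2 lower), DESeq2, no filter and all 9 libraries each gave 3 higher (3.04%, 0.472% and 3.11%) and gene length correction 1 (0.995%). Its leave-one-out fits gave 0 to 37 higher and 0 to 5 lower (0% to 29.9% and 0.0173% to 30.1%). A fit with all 9 libraries also takes in the spread of the Control libraries. The cause of these changes was not tested.

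Replicate numbers were shared between groups, but correlations of same-numbered libraries were -0.0236, 0.175 and 0.283 in IgE+BSA+Luteolin against IgE+BSA and not all above 0.1, so the numbers were not taken to pair the libraries. Their mean was 0.145, against -0.0727 for libraries of different number, and 3 pairs cannot settle whether the numbers pair. With the replicate block, 13 members were higher in IgE+BSA+Luteolin than in IgE+BSA (14 with gene length correction as well), against 22.8% of all genes tested (20.3%). In IgE+BSA against Control 0 were higher (2 with gene length correction as well), against 1.1% (1.67%), and in IgE+BSA+Luteolin against Control 0 were lower (1 with gene length correction as well), against 1.72% (2.15%). Gene length correction turned Pfkp from -0.12 to 0.12 and Dlst from -0.03 to 0.13, with or without the block. Pfkp passed as lower with the block alone (edgeR adjusted p = 0.0178) and as higher with both (edgeR adjusted p = 0.0185), while with both Dlst passed as higher (edgeR adjusted p = 0.0275) and Idh1 as lower (-0.19, edgeR adjusted p = 0.0474). Of 3 libraries in the first comparison, not every one correlated best with its own number (2 did).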
